A study of Homo sapiens with 12 samples.

Results

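The RNAs described here are the expressed long noncoding RNAs of the human beta-cell line EndoC-βH1 whose current symbol starts with LINC or SNHG, together with MALAT1, NEAT1 and GAS5. The genes were chosen by their symbol and by a mean expected count of at least 50 over the 12 libraries, so their levels are given as a description. Of the 21508 gene IDs in the deposited tables, 857 carried a matching symbol and 152 passed this level: 132 LINC genes, 18 snoRNA host genes (17 SNHG genes and GAS5), and MALAT1 and NEAT1. All 152 are annotated as long noncoding RNA by RefSeq, as their symbols say, and none was at 0 in any library. The 18 are called hosts by their symbol. RefSeq places snoRNAs within 16 of them but not within SNHG10 or SNHG20, and also within 3 of the LINC genes.

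EndoC-βH1 is an established line of insulin-producing cells. The cells had been transfected with siRNAs against the long noncoding RNA TUNAR (siTUNAR) or with AllStars negative control siRNA (Neg), and 2 days later had received 5 µM of the GSK3 inhibitor 1-AKP or DMSO at 1:1000 for 24 hours. This gave 4 groups of 3 libraries: siTUNAR with 1-AKP, siTUNAR with DMSO, Neg with 1-AKP, and Neg with DMSO. In each group replicates 1 and 2 came from passage 74 and replicate 3 from passage 75. All groups are of 1 cell line and all were transfected. Whether replicates 1 and 2 were separate cultures is not in the labels. The p-values then cover nothing beyond the variation among these 12 libraries, part of which may be technical.

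Small nucleolar RNAs (snoRNAs) guide chemical modification of ribosomal and other RNAs, and most human ones are cut from introns. SNHG genes and GAS5 carry them in their introns, while their spliced exons code for no known essential protein and are in several cases degraded by nonsense-mediated decay, a translation-dependent pathway. Many such host genes, like ribosomal protein genes, start with a terminal oligopyrimidine tract, through which translation is tied to growth signalling. LINC symbols are given to intergenic noncoding transcripts of mostly unassigned function. MALAT1 and NEAT1 are nuclear RNAs: MALAT1 gathers at nuclear speckles and NEAT1 is the scaffold of paraspeckles. GSK3 is the kinase that marks β-catenin for destruction, and its inhibition turns on Wnt target genes.

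The sequences around the start of 12 of the snoRNA host genes are shown because some snoRNA hosts rose with 1-AKP. Each is 60 bases, 30 before and 30 after the RefSeq start, on the gene's strand, 5′ to 3′, from RefSeq on GRCh38.p14 (the deposited values were made on GRCh37/hg19). Capitals mark CTTTC or CTTTT lying within 10 bases of the start on the gene's strand. The first 8 are all the hosts found with such letters. The last 4, SNHG3, SNHG7, SNHG1 and GAS5, are those of the 8 hosts without them that were called with 1-AKP in at least 1 comparison. No promoter was found for SNHG6, which was called too.
SNHG8 (chr4:118278732-118278791, + strand): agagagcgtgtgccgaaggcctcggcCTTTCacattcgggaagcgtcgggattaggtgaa
SNHG29 (chr17:16438957-16439016, + strand): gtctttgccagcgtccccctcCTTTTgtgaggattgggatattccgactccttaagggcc
SNHG32 (chr6:31834886-31834945, + strand): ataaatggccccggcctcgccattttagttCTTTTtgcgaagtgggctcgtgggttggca
SNHG5 (chr6:85678704-85678763, - strand): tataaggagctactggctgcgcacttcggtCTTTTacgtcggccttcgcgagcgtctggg
SNHG12 (chr1:28581844-28581903, - strand): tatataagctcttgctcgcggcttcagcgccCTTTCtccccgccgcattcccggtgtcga
SNHG16 (chr17:76557734-76557793, + strand): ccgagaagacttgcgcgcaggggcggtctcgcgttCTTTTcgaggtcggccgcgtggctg
SNHG4 (chr5:139274071-139274130, + strand): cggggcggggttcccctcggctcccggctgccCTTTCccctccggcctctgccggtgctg
SNHG33 (chr3:183447578-183447637, + strand): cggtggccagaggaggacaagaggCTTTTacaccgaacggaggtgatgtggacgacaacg
SNHG3 (chr1:28505913-28505972, + strand): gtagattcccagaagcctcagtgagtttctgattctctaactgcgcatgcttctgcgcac
SNHG7 (chr9:136728155-136728214, - strand): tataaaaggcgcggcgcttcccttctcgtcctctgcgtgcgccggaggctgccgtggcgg
SNHG1 (chr11:62855856-62855915, - strand): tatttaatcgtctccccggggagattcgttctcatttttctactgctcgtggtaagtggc
GAS5 (chr1:173869016-173869075, - strand): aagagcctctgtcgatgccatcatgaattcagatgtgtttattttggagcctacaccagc

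RefSeq promoters were found for 107 of the 152 RNAs, 16 of them snoRNA hosts. The start letters stood in 8 of these 16 (50%), against 3 of 90 LINC promoters (3.33%), 35 of 61 promoters of cytosolic ribosomal protein genes (57.4%) and 5.43% of all 27305 RefSeq promoters. In the 300 bases from 250 before to 50 after the start, the letters CTTTGAT or CTTTGAA, which TCF/LEF factors downstream of β-catenin can bind, stood on either strand in 0 of the 16 host promoters, in 3 of the 90 LINC promoters (3.33%) and in 6.98% of all promoters. A match or its absence describes only these letters in this window.

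The smallest library held 15653786 expected counts and the largest 15986834, of which the 152 RNAs took 0.333% to 0.349%. Markers of several cell types were checked. All 12 beta-cell markers were expressed and summed to 11707 to 16051 CPM per library (CPM are counts scaled to a common library size). The 3 of 6 endothelial and blood markers that passed the expression filter summed to 25.2 to 56.8 CPM, with HBB at 0. Of 9 markers of other islet cells 5 passed it and summed to 1256 to 1762 CPM. So did 3 of 7 of duct and acinar cells (72.6 to 97.8 CPM) and 2 of 7 of fibroblasts and stellate cells (2.54 to 6.93 CPM). PPY, PRSS1 and CELA3A were at 0. TUNAR, the targeted gene, had 6.95, 10.4 and 13.6 CPM with siTUNAR and 1-AKP against 27.9, 31.0 and 30.8 CPM with Neg and 1-AKP, and 3.83, 7.20 and 8.09 CPM with siTUNAR and DMSO against 14.4, 19.9 and 17.7 CPM with Neg and DMSO. It was lower in every siTUNAR library than in every Neg library of the same treatment.

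Per transcript length, the snoRNA hosts were the most abundant class. Their mean FPKM over the 12 libraries (fragments scaled by transcript length and library depth, as deposited) ran from 4.13 to 267 with a median of 14.0, and 12 of the 18 reached 10 FPKM. LINC genes ran from 0.439 to 130 FPKM with a median of 3.77, and 22 of 132 reached 10 FPKM. The median over all 12859 genes with a mean count of at least 50 was 11.6 FPKM. SNHG29, which carries SNORD49A, SNORD49B and SNORD65, led with 267 FPKM, followed by SNHG32 with 133 FPKM, the host of SNORD48 and SNORD52. Among the LINC genes LINC00987 had 130 FPKM, LINC02043 had 41.7, LINC00958 had 35.9, LINC00504 had 34.5 and LINC02432 had 32.0 FPKM. A few RNAs made up much of the class: the 5 with the most counts held 30.03% of all counts of the 152, and the 10 with the most held 44.0%.

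MALAT1 had a mean of 12.9 FPKM, rank 28 of 152, and NEAT1 had 0.268 FPKM, the lowest of all. NEAT1 has 2 transcripts in the deposited tables, and its deposited length averaged 18078 bases over the 12 libraries. This length differed between libraries by up to 8674 bases, and the FPKM depends on it. The libraries were made from oligo(dT)-selected RNA. MALAT1 and the long NEAT1 transcript end in a triple helix instead of a poly(A) tail, and mature snoRNAs carry no tail either, so the values are those of captured host and nuclear transcripts and not of the snoRNAs. At the edge of the rule, LINC00960, LINC00971 and LINC00698 were kept with mean counts of 51.5, 51.5 and 51.6, and LINC01205, LINC00508 and LINC01011 were left out with 50.0 (just under), 48.5 and 47.9.

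**Figure D1:**
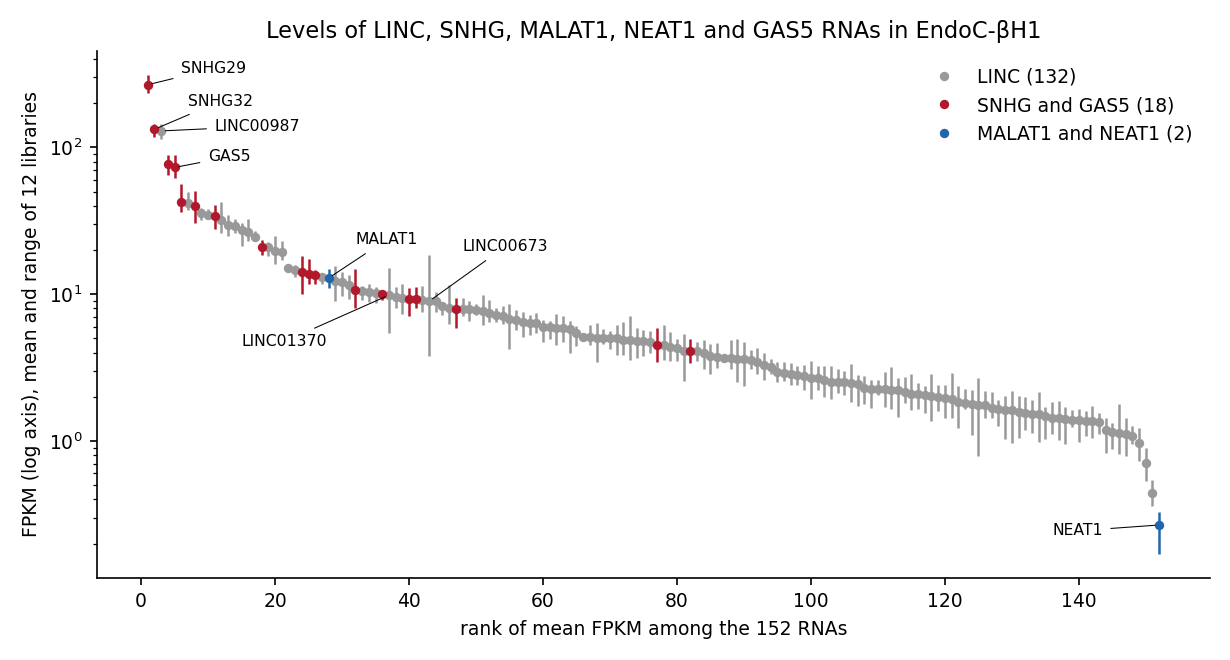
Levels of the 152 RNAs. Each point is the mean FPKM of 1 RNA over 12 libraries on a log axis, ranked from the highest, with a line from the lowest to the highest library and colour for the class. The snoRNA hosts lie mostly in the upper part, and NEAT1 with 0.268 FPKM is last.

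Some snoRNA hosts rose with 1-AKP and none fell. Against DMSO in Neg cells, 5 of 18 hosts rose (SNHG3, SNHG7, SNHG8, SNHG29 and GAS5), and in siTUNAR cells 6 of 18 rose (SNHG3, SNHG7, SNHG8, SNHG29, SNHG1 and SNHG6). A call here is an adjusted p under 0.05 in edgeR's quasi-likelihood test over all 15990 genes tested, with Benjamini-Hochberg adjustment. Over all 152 RNAs, 9 were called in Neg cells, 7 up and 2 down, against 7.3% of all genes (3.54% up and 3.76% down). In siTUNAR cells 11 were called, 8 up and 3 down, against 7.51% of all genes (3.72% up and 3.79% down). These counts depend on which replicates are used: without replicate 1 in all groups 7 hosts in Neg cells and 9 in siTUNAR cells rose (8.29% and 9.05% of all genes did), and without replicate 2 or without replicate 3 none was called. The calls of LINC genes described below were lost in those runs too. Leaving out replicate 2 or 3 of a single siTUNAR group gave 6 or 7 calls in siTUNAR cells in place of 11. The shares of all genes called without replicate 2 or 3, or without single libraries, are not given here. With the replicate number as a block, 30 of the 152 were called in Neg cells, against 26.8% of all genes. In siTUNAR cells 32 were, against 27.1%. Between 1-AKP and DMSO, replicate 2 did not reach the pairing correlation of 0.1, so the blocked fit is given as an alternative.

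As a class, the hosts had positive fold changes in 16 of 18 cases in Neg cells, with a median log2 fold change of 0.21, and in 17 of 18 in siTUNAR cells, with a median of 0.25, against a median of -0.00 over all genes in both. All 3 libraries with 1-AKP lay above all 3 with DMSO for 11 of 18 hosts in Neg cells, where 13.4% of all genes did so, and for 11 of 18 in siTUNAR cells, where 12.1% did so. In both cell groups, which share no libraries, 9 hosts did so, against 7.38% of all genes. Of these 9, 7 were called in at least 1 comparison in the fit of group means on all libraries, and SNHG20 and SNHG32 in none. In sum the 18 hosts had 705 to 755 CPM with siTUNAR and 1-AKP against 607 to 626 CPM with siTUNAR and DMSO, and 736 to 766 CPM with Neg and 1-AKP against 630 to 637 CPM with Neg and DMSO. In bulk RNA such as this, fewer cells of a type and less RNA per cell cannot be told apart.

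SNHG3, the host of SNORA73A and SNORA73B, moved most among the hosts. It had 27.6, 25.6 and 29.6 CPM with siTUNAR and 1-AKP against 19.04, 17.9 and 19.7 CPM with siTUNAR and DMSO. With Neg, SNHG3 had 33.5, 26.0 and 29.2 CPM under 1-AKP against 20.4, 20.7 and 17.9 CPM under DMSO. Every library with 1-AKP was above every library with DMSO. Its log2 fold change was 0.55 in siTUNAR cells (SE 0.0992, adjusted p = 0.00596) and 0.59 in Neg cells (SE 0.0985, adjusted p = 0.0043). Its RefSeq interval overlaps RCC1, a nuclear exchange factor gene, whose fold changes were 0.10 (adjusted p = 0.586) and 0.14 (adjusted p = 0.408) in the same 2 comparisons.

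SNHG7 hosts SNORA17A and SNORA17B. It had 46.8, 46.4 and 45.7 CPM with siTUNAR and 1-AKP against 35.2, 32.8 and 34.2 CPM with siTUNAR and DMSO. In Neg cells it had 53.2, 50.7 and 49.9 CPM under 1-AKP against 37.7, 38.7 and 39.7 CPM under DMSO. The groups did not overlap in either cell group, and the log2 fold change was 0.44 (SE 0.0526, adjusted p = 0.000432) in siTUNAR cells and 0.41 (SE 0.0520, adjusted p = 0.000753) in Neg cells.

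SNHG8 carries the start letters CTTTC shown above. It had 21.9, 24.6 and 25.5 CPM with siTUNAR and 1-AKP against 18.4, 18.9 and 20.8 CPM with siTUNAR and DMSO, and 26.9, 24.5 and 29.2 CPM with Neg and 1-AKP against 19.7, 20.0 and 19.3 CPM with Neg and DMSO. Both pairs of groups were apart. The log2 fold change was 0.31 in siTUNAR cells (SE 0.0863, adjusted p = 0.0472) and 0.45 in Neg cells (SE 0.0857, adjusted p = 0.00877). The call in siTUNAR cells sat close to the threshold and was lost in 16 of 29 alternative analyses.

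SNHG29, the most abundant host, rose by a small and even amount. It had 253, 275 and 273 CPM with siTUNAR and 1-AKP against 225, 220 and 222 CPM with siTUNAR and DMSO. The Neg libraries had 258, 260 and 265 CPM under 1-AKP against 219, 222 and 223 CPM under DMSO. Again no library with 1-AKP was as low as any with DMSO, and the log2 fold change was 0.27 (SE 0.0400, adjusted p = 0.00221) in siTUNAR cells and 0.24 (SE 0.0400, adjusted p = 0.00439) in Neg cells.

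GAS5 and SNHG1 carry the longest arrays of snoRNAs in this set, 11 and 9 by RefSeq, and both are textbook targets of nonsense-mediated decay. GAS5 had 47.0, 51.1 and 46.4 CPM with siTUNAR and 1-AKP against 44.1, 38.9 and 38.9 CPM with siTUNAR and DMSO, a log2 fold change of 0.24 (SE 0.0734, adjusted p = 0.0632) that did not pass the threshold. In Neg cells GAS5 had 47.2, 55.6 and 53.2 CPM under 1-AKP against 42.5, 42.0 and 40.9 CPM under DMSO, and it rose (0.31, SE 0.0730, adjusted p = 0.0224). The groups did not overlap in either case, and the call in Neg cells was lost when any single library of Neg with DMSO, or replicate 2 or 3 of Neg with 1-AKP, was left out, with adjusted p up to 0.373 over all alternatives.

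SNHG1 had 40.5, 40.03 and 45.6 CPM with siTUNAR and 1-AKP against 35.5, 31.1 and 34.9 CPM with siTUNAR and DMSO, and it rose (0.31, SE 0.0794, adjusted p = 0.0328). In Neg cells SNHG1 had 41.9, 37.6 and 44.1 CPM under 1-AKP against 35.1, 34.1 and 37.2 CPM under DMSO (0.22, SE 0.0792, adjusted p = 0.129). The groups were apart in both. Its neighbour SLC3A2, which encodes the heavy chain of an amino acid transporter, rose in siTUNAR cells (0.33, SE 0.0573, adjusted p = 0.0046) and in Neg cells (0.36, SE 0.0574, adjusted p = 0.00309). SNHG6 had 35.5, 34.9 and 39.5 CPM with siTUNAR and 1-AKP against 30.7, 28.9 and 32.0 CPM with siTUNAR and DMSO and rose (0.27, SE 0.0663, adjusted p = 0.0305), with the groups apart. In Neg cells SNHG6 had 35.97, 35.6 and 35.6 CPM under 1-AKP against 33.8, 31.8 and 34.9 CPM under DMSO (0.09, adjusted p = 0.485). The call of SNHG1 was lost without replicate 2 or 3 of either siTUNAR group, and that of SNHG6 without replicate 1 or 2 of siTUNAR with DMSO or replicate 3 of siTUNAR with 1-AKP. The difference between the 2 cell groups was not called for any of these hosts.

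**Figure D2:**
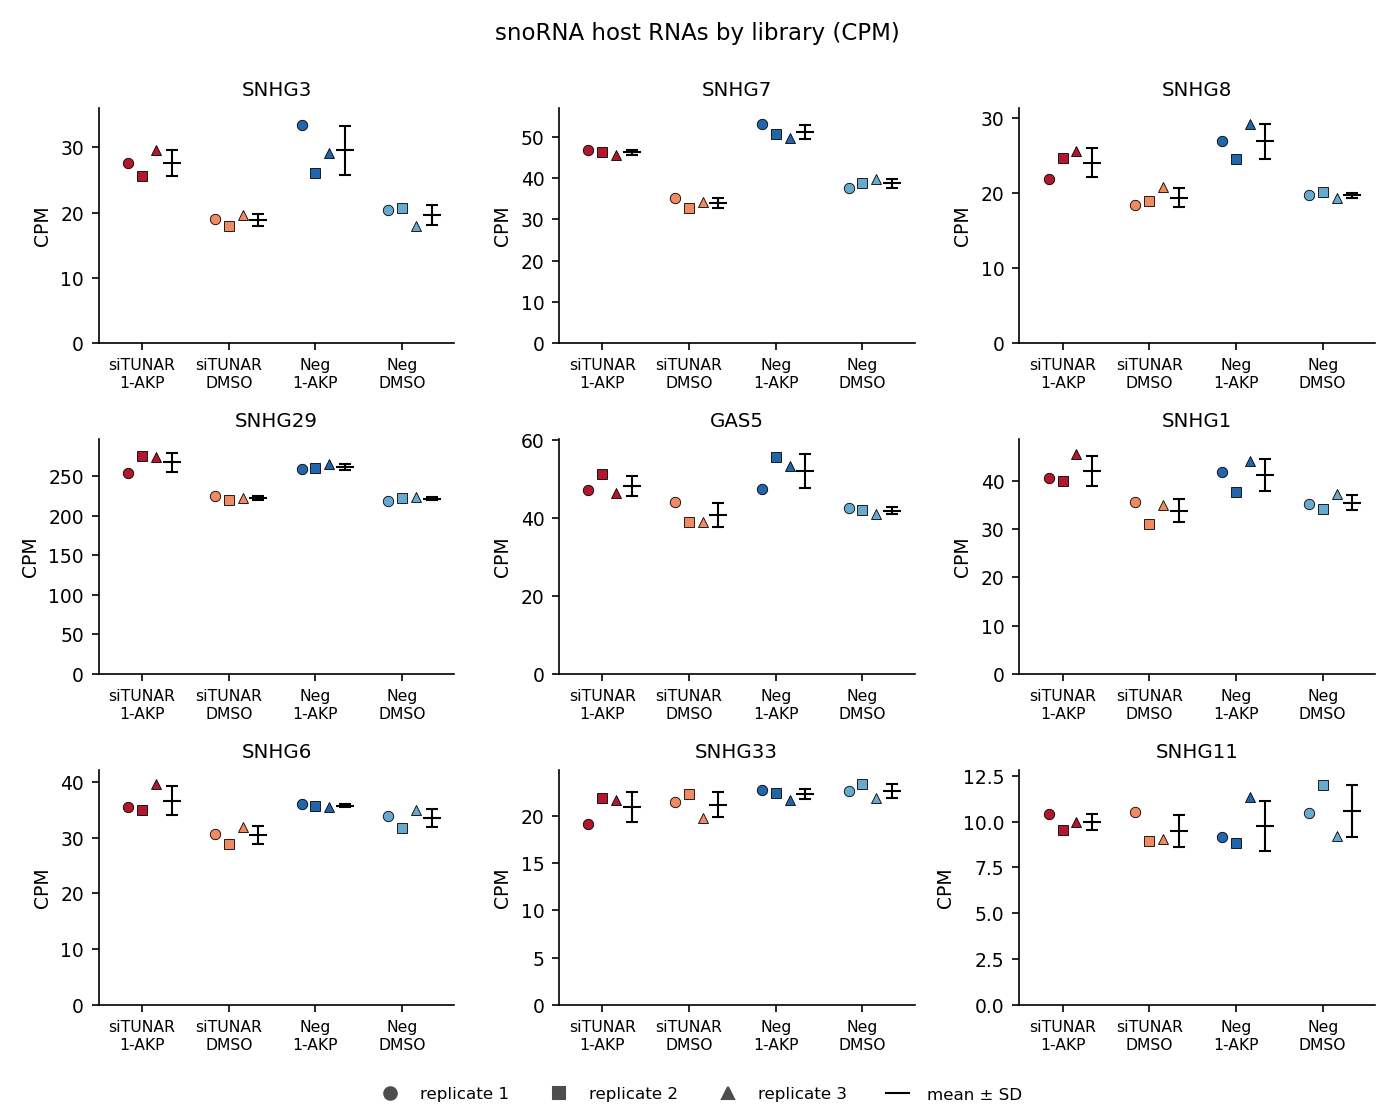
CPM of 9 snoRNA hosts in each library, with 3 points per group and the mean ± SD; groups run from siTUNAR with 1-AKP to Neg with DMSO. For SNHG3, SNHG7, SNHG8, SNHG29, GAS5, SNHG1 and SNHG6 the 1-AKP points lie above the DMSO points of the same siRNA, and for SNHG33 and SNHG11 the points overlap.

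In the fit of group means on all libraries, the other 11 hosts were not called in either comparison. Over the alternative fits up to 12 hosts rose in siTUNAR cells and up to 9 in Neg cells, so some of these 11 were called there. The share of all genes that rose varied as well, and with the replicate block it was 14.2% in siTUNAR cells and 14.0% in Neg cells. SNHG32 had log2 fold changes of 0.15 in siTUNAR cells and 0.14 in Neg cells, and SNHG20 had 0.16 and 0.14, each with all 1-AKP libraries above all DMSO libraries. SNHG15, SNHG16 and SNHG17 had larger values with wider spread, at 0.45, 0.18 and 0.34 in siTUNAR cells and 0.37, 0.31 and 0.21 in Neg cells. The values of SNHG4, SNHG5, SNHG10 and SNHG12 lay between 0.03 and 0.29. SNHG33 had -0.02 in each, and SNHG11 had 0.07 in siTUNAR cells and -0.11 in Neg cells. Hosts with the start letters CTTTC or CTTTT had a median log2 fold change of 0.17 in siTUNAR cells and 0.21 in Neg cells, with 2 of 8 called in each. Hosts without them had medians of 0.28 and 0.21, with 3 of 8 called in each. All these calls were rises, and of all genes 3.72% rose in siTUNAR cells and 3.54% in Neg cells.

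Many ribosomal protein genes rose as well. Of 77 cytosolic ribosomal protein genes, 48 rose and none fell in siTUNAR cells (median log2 fold change 0.18), where 3.72% of all genes rose. In Neg cells 51 rose and none fell (median 0.18), where 3.54% of all genes rose. All 77 had positive values in both comparisons. Of 25 other snoRNA host genes, 4 rose and 1 fell in siTUNAR cells (median 0.12; 20% called, against 7.51% of all genes), and 4 rose and none fell in Neg cells (median 0.16; 16%, against 7.3%). DANCR, a noncoding host, rose by 0.51 (adjusted p = 0.00324) in siTUNAR cells and 0.64 (adjusted p = 0.000794) in Neg cells, and NPM1, which encodes a nucleolar ribosome-assembly protein, rose by 0.27 in both. Of 15 nonsense-mediated decay factors none was called in siTUNAR cells, and 2 rose and 1 fell in Neg cells (20%, against 7.3%). None of 12 snoRNP and MALAT1 processing factors was called in either, although 11 of the 12 had positive values in each. Of 28 G2/M genes none was called in either comparison.

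**Figure D3:**
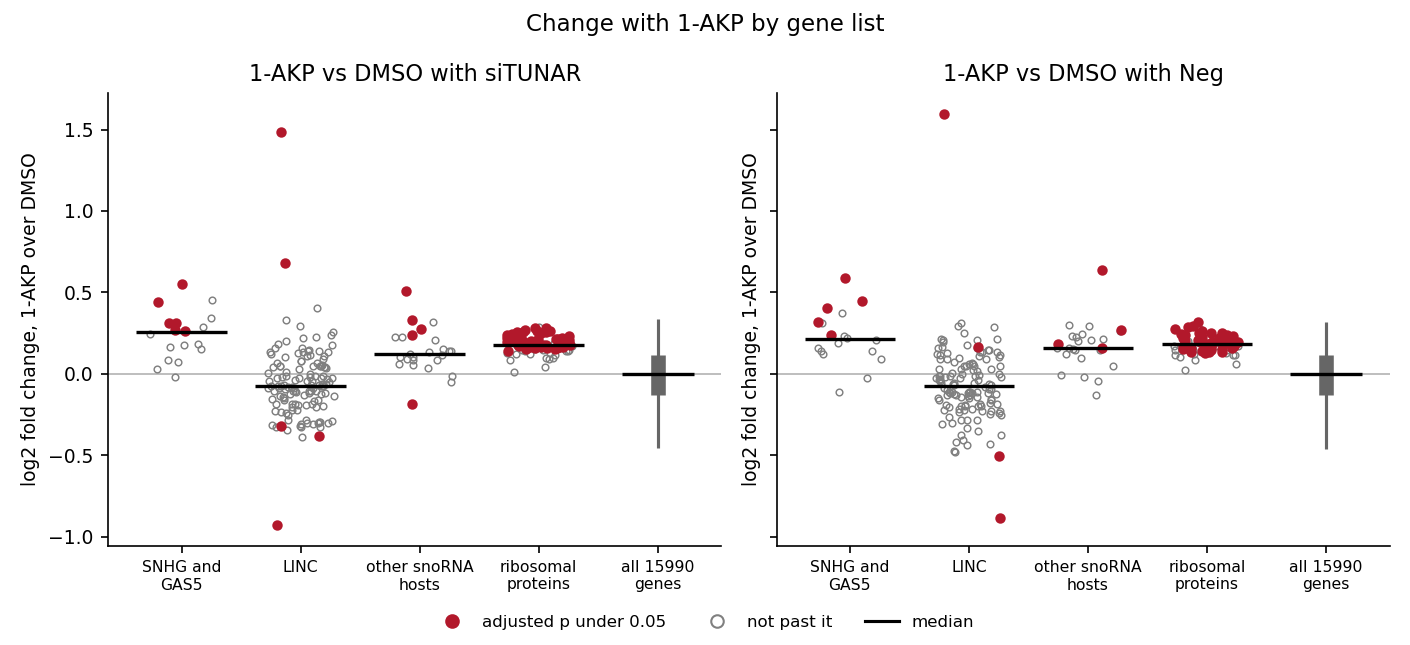
Log2 fold changes of 1-AKP over DMSO in siTUNAR cells (left) and Neg cells (right), 1 point per gene, for the snoRNA hosts, the LINC genes, 2 further lists and, as percentiles, all 15990 genes tested. Red points have an adjusted p under 0.05 and bars are medians: the hosts lie at 0.25 and 0.21 and the LINC genes at -0.07 and -0.08.

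Few LINC genes were called with 1-AKP, and their median fold change was slightly negative. In siTUNAR cells 2 of 132 rose and 3 fell (3.79% called, against the 7.51% of all genes), 88 of 132 values were negative and the median log2 fold change was -0.07. In Neg cells 2 rose and 2 fell (3.03%, against 7.3%), 87 were negative and the median was -0.08. All 3 libraries with 1-AKP lay below all 3 with DMSO for 20 LINC genes in siTUNAR cells (15.2%, against 12% of all genes) and for 20 in Neg cells (15.2%, against 12.5%). They lay above for 7 in siTUNAR cells (5.3%, against 12.1%) and for 6 in Neg cells (4.55%, against 13.4%). Without replicate 1 in all groups, 4 LINC genes rose and 7 fell in siTUNAR cells, where 9.05% of all genes rose and 8.26% fell, and 3 rose and 8 fell in Neg cells, where 8.29% rose and 7.71% fell.

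LINC00673 had the largest change and the largest coefficient of variation of all 152 RNAs (55.5% over the 12 libraries). It was first studied in pancreatic cancer cells, where it has been linked to turnover of the phosphatase PTPN11. It had 42.3, 28.2 and 27.7 CPM with siTUNAR and 1-AKP against 13.5, 11.1 and 10.5 CPM with siTUNAR and DMSO. In Neg cells it had 34.3, 24.5 and 24.99 CPM under 1-AKP against 9.99, 8.65 and 9.08 CPM under DMSO. The lowest library with 1-AKP was above the highest with DMSO in both, and replicate 1 was the highest of its group in all 4 groups. The fitted ratio was 2.79 in siTUNAR cells (log2 fold change 1.48, SE 0.186, adjusted p = 0.000874) and 3.02 in Neg cells (1.59, SE 0.191, adjusted p = 0.000661).

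By RefSeq LINC00673 lies between SOX9 and SLC39A11. SOX9, a progenitor and duct transcription factor gene, did not pass the expression filter, and SLC39A11, a zinc transporter gene, had log2 fold changes of 0.08 (adjusted p = 0.581) and 0.03 (adjusted p = 0.862) in siTUNAR and Neg cells. The promoter sequence of LINC00673, from 250 bases before to 50 after its RefSeq start, is shown because of the size of this change. It holds none of the motifs searched on either strand. These were the TCF/LEF letters given above, the cyclic AMP response element TGACGTCA (in 1.98% of all promoters), the E-box CACGTG (in 7.43%) and the ETS letters CCGGAAG (in 10.7%).
LINC00673 (chr17:72592755-72593054, - strand): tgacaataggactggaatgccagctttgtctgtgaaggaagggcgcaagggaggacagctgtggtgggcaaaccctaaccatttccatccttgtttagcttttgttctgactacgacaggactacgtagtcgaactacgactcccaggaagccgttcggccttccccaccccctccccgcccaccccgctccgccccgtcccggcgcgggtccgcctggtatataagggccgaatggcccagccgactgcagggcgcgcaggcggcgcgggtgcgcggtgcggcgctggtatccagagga

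LINC01370 fell most. It had 4.76, 4.05 and 4.251 CPM with siTUNAR and 1-AKP against 7.42, 9.39 and 8.09 CPM with siTUNAR and DMSO, and 5.88, 6.56 and 4.58 CPM with Neg and 1-AKP against 10.5, 10.9 and 10.1 CPM with Neg and DMSO. Neither pair overlapped. The log2 fold change was -0.93 (SE 0.144, adjusted p = 0.00256) in siTUNAR cells and -0.89 (SE 0.137, adjusted p = 0.00271) in Neg cells.

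LINC00865 had 15.3, 16.03 and 17.5 CPM with siTUNAR and 1-AKP against 19.4, 22.2 and 22.0 CPM with siTUNAR and DMSO, and 15.6, 15.5 and 15.71 CPM with Neg and 1-AKP against 21.6, 21.1 and 23.7 CPM with Neg and DMSO. All 1-AKP libraries were below all DMSO libraries, and it fell in siTUNAR cells (-0.38, SE 0.0825, adjusted p = 0.0154) and in Neg cells (-0.51, SE 0.0825, adjusted p = 0.0037). The call in siTUNAR cells was lost without replicate 2 or 3 of siTUNAR with DMSO or replicate 2 of siTUNAR with 1-AKP. LINC00997 had 25.7, 26.0 and 27.5 CPM with siTUNAR and 1-AKP against 34.6, 32.8 and 31.8 CPM with siTUNAR and DMSO and fell (-0.32, SE 0.0596, adjusted p = 0.00661). With Neg it had 27.8, 27.5 and 26.5 CPM under 1-AKP against 31.7, 30.2 and 31.7 CPM under DMSO (-0.20, SE 0.0596, adjusted p = 0.0709), which did not pass, although the groups were apart.

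A pair of LINC calls lay just under the threshold. LINC01106 had 3.48, 4.24 and 4.76 CPM with siTUNAR and 1-AKP against 2.70, 2.19 and 2.88 CPM with siTUNAR and DMSO and rose (0.68, SE 0.192, adjusted p = 0.0494). With Neg it had 2.85, 3.22 and 4.26 CPM under 1-AKP against 3.12, 2.93 and 3.57 CPM under DMSO, where the groups overlapped (0.10, adjusted p = 0.832). LINC01623 had 73.8, 75.7 and 71.6 CPM with Neg and 1-AKP against 67.02, 64.2 and 66.3 CPM with Neg and DMSO and rose (0.16, SE 0.0453, adjusted p = 0.0488). In siTUNAR cells it had 71.3, 69.7 and 72.3 CPM with 1-AKP against 63.2, 65.6 and 65.3 CPM with DMSO (0.14, SE 0.0454, adjusted p = 0.0953), also apart. These 2 calls were lost in 20 and 19 of 29 alternatives, among them leaving out any 1 DMSO library of the fit.

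Both comparisons called 7 RNAs with the same sign: LINC00673, SNHG3, SNHG7, SNHG8 and SNHG29 up, and LINC00865 and LINC01370 down. They make up 63.6% of the 11 called in siTUNAR cells and 77.8% of the 9 called in Neg cells. Of all genes 7.51% were called in siTUNAR cells and 7.3% in Neg cells, and the share called in both was not computed. The 2 comparisons share no libraries, but share 1 estimate of the spread. In both cell groups alike, 8 of the 132 LINC genes had all 1-AKP libraries below all DMSO libraries, against 6.97% of all genes, and 3 had all above, against 7.38%. Among those not called with 1-AKP, LINC01000, LINC01347, LINC00526, LINC00506 and LINC00970 lay below in both, with log2 fold changes from -0.23 to -0.12, and LINC01278 lay above in both (0.22 and 0.25).

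**Figure D4:**
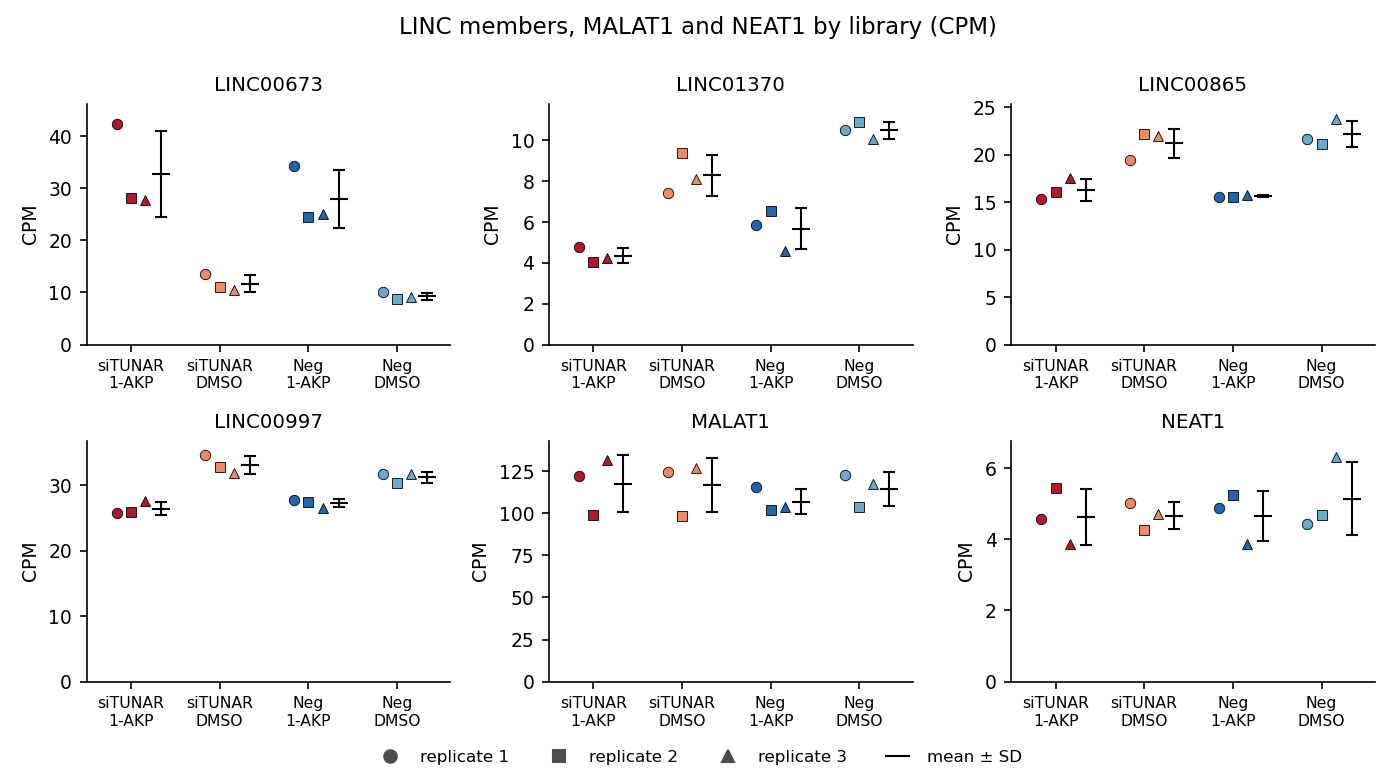
CPM of 4 LINC genes, MALAT1 and NEAT1 in each library, with 3 points per group and the mean ± SD, from siTUNAR with 1-AKP at the left to Neg with DMSO at the right. LINC00673 lies at 24.5 to 42.3 CPM with 1-AKP and at 8.65 to 13.5 CPM with DMSO, while the MALAT1 and NEAT1 groups overlap.

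MALAT1 and NEAT1 showed no call with 1-AKP. MALAT1 had 122, 99.1 and 132 CPM with siTUNAR and 1-AKP against 125, 98.6 and 127 CPM with siTUNAR and DMSO (0.01, SE 0.118, adjusted p = 0.978), and 115, 102 and 104 CPM with Neg and 1-AKP against 122.9, 104 and 117 CPM with Neg and DMSO (-0.10, SE 0.118, adjusted p = 0.718). The groups overlapped in both. NEAT1 had 4.57, 5.45 and 3.87 CPM with siTUNAR and 1-AKP against 5.03, 4.26 and 4.70 CPM with siTUNAR and DMSO (-0.01, SE 0.180), and 4.87, 5.23 and 3.88 CPM with Neg and 1-AKP against 4.44, 4.67 and 6.32 CPM with Neg and DMSO (-0.14, SE 0.178), overlapping again. None of 14 paraspeckle protein genes was called in either comparison. Of 27 other named long noncoding RNAs tested, 1 was called in both: FTX, a noncoding gene of the X-inactivation centre, rose by 0.25 (adjusted p = 0.00518) in siTUNAR cells and 0.18 (adjusted p = 0.026) in Neg cells.

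TUNAR siRNAs gave no call among the 152 RNAs in the fit of group means, and with the replicate number as a block 2 calls with DMSO, against 3.05% of all genes, and 1 with 1-AKP, against 2.77%. Without the block, siTUNAR against Neg with DMSO gave 0 of 152 calls by edgeR, against 0.0125% of all genes, with 8 of the 152 at an unadjusted p under 0.05, and 0 by DESeq2, against 0.131% of all genes. With 1-AKP it gave 0 of 152 by edgeR, against 0% of all genes, with 6 at an unadjusted p under 0.05, and 0 by DESeq2, against 0.0938% of all genes. The counts at an unadjusted p are not calls, because a share of 0.05 of unchanged genes is expected to reach that level. The median log2 fold change of the snoRNA hosts was -0.06 with DMSO, where 15 of 18 values were negative, and -0.07 with 1-AKP, where 12 of 18 were, and that of the LINC genes was 0.02 in both. All 3 siTUNAR libraries lay above all 3 Neg libraries for 12 of the 152 with DMSO (5.3% of all genes) and below for 16 (5.22% of all genes), and above for 6 (4.5% of all genes) and below for 7 (4.47% of all genes) with 1-AKP.

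SNHG7 was among the RNAs lower in every siTUNAR library. Its siTUNAR values of 46.8, 46.4 and 45.7 CPM with 1-AKP lay below the Neg values of 53.2, 50.7 and 49.9 CPM (-0.15, SE 0.0516, adjusted p = 0.886), and with DMSO 35.2, 32.8 and 34.2 CPM lay below 37.7, 38.7 and 39.7 CPM (-0.18, SE 0.0529, adjusted p = 0.656). Neither difference passed the test, and SNHG7 was not among the RNAs called with the replicate number as a block. MALAT1 had 0.14 with 1-AKP and 0.03 with DMSO, and NEAT1 had -0.01 and -0.14, with overlapping groups.

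The replicate numbers paired the libraries of these siRNA comparisons, and the RNAs called with the block were LINC00242 and LINC00673 with DMSO and LINC01018 with 1-AKP. LINC00242 had 5.03, 3.32 and 3.32 CPM with siTUNAR and DMSO against 6.87, 5.29 and 5.88 CPM with Neg and DMSO, with all siTUNAR libraries below. Its log2 fold change was -0.63 (adjusted p = 0.792) without the block and -0.64 (SE 0.141, adjusted p = 0.00587) with it, and this call was lost without replicate 2 or 3. Its RefSeq interval overlaps LINC00574, so reads of the 2 may not be separable. LINC00673 had a blocked log2 fold change of 0.34 with DMSO (SE 0.0970, adjusted p = 0.045, against 0.9995 without the block), lost without any 1 replicate number. LINC01018 had 14.5, 13.9 and 16.4 CPM with siTUNAR and 1-AKP against 18.5, 18.0 and 22.8 CPM with Neg and 1-AKP. All siTUNAR libraries were lower, and the blocked log2 fold change was -0.40 (SE 0.0808, adjusted p = 0.00269, against 0.704 without the block), lost without replicate 3.

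The difference between the siRNA effects with 1-AKP and with DMSO was called for 0 of 152 RNAs by edgeR, against 0% of all genes, and for 0 by DESeq2, against 0%. At an unadjusted p under 0.05, which a share of 0.05 of unchanged genes is expected to reach, there were 3: LINC00092, LINC02072 and LINC01204.

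In the fit with the replicate number, more of these RNAs were called by number than by siRNA. Replicate 1, set against replicates 2 and 3 within groups, differed for 31 of 152 RNAs (20.4%), 18 up and 13 down. Of all genes 41.5% differed, 20% up and 21.5% down, so the share among these RNAs did not exceed the background. By class, 17 LINC genes and MALAT1 were higher in replicate 1, and 11 LINC genes, SNHG15 and SNHG16 were lower. Of the 31 calls, 17 held in all 22 alternatives run.

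LINC02525 was highest in replicate 1 of every group. It had 14.7, 14.96, 15.6 and 16.5 CPM in replicate 1, in the order of groups given at the start, against 9.19, 9.71, 10.5 and 10.5 CPM in replicate 2 and 9.46, 9.21, 10.1 and 9.14 CPM in replicate 3. Its means were 15.4 ± 0.803, 9.97 ± 0.642 and 9.46 ± 0.412 CPM (SD, n = 4 each), and the log2 difference was 0.67 (SE 0.0646, adjusted p = 1.15e-10 by edgeR). LINC00654 followed with 0.66 (SE 0.117, adjusted p = 1.56e-05 by edgeR). LINC00261, a noncoding gene beside FOXA2 that has been linked to FOXA2 expression in endoderm, had means of 115 ± 6.11, 87.0 ± 7.56 and 90.2 ± 10.2 CPM in replicates 1, 2 and 3, a log2 difference of 0.38 (SE 0.0346, adjusted p = 4.62e-10 by edgeR). All 4 replicate 1 libraries of LINC00261 were above all 8 others. LINC01806 (0.52), LINC02432 (0.46), LINC01145 (0.46), LINC00673 (0.45) and LINC00242 (0.43) were also higher. So were LINC01089 (0.36), LINC00467 (0.31), LINC00641 (0.31), LINC00869 (0.28), LINC00900 (0.24), LINC00863 (0.20), LINC00847 (0.20), LINC00339 (0.18) and LINC00667 (0.13).

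LINC02693 was lowest in replicate 1. Its means were 41.8 ± 1.74, 56.5 ± 4.18 and 57.5 ± 2.48 CPM in replicates 1, 2 and 3 (SD, n = 4 each), a log2 difference of -0.45 (SE 0.0373, adjusted p = 2.63e-12 by edgeR). No replicate 1 library reached the lowest of the other 8. LINC00987, the LINC gene with the highest level, had means of 290, 326 and 344 CPM and a log2 difference of -0.21 (SE 0.0220, adjusted p = 7.11e-10 by edgeR). SNHG15, the host of SNORA9, had 9.01, 8.05, 11.8 and 8.81 CPM in replicate 1 against 14.2, 8.52, 14.9 and 11.3 CPM in replicate 2 and 14.5, 11.1, 14.9 and 12.02 CPM in replicate 3. It was the lowest replicate in each group, with a log2 difference of -0.43 (SE 0.0753, adjusted p = 1.69e-05 by edgeR). LINC01512 (-0.62), LINC01123 (-0.40), LINC01963 (-0.25) and LINC00957 (-0.19) were lower too, as were LINC00698 (-0.43), LINC01002 (-0.33), LINC00907 (-0.26), LINC01128 (-0.16), LINC01000 (-0.09) and SNHG16 (-0.19).

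MALAT1 had means of 121 ± 4.15, 101 ± 2.40 and 120 ± 12.4 CPM in replicates 1, 2 and 3 (SD, n = 4 each). Replicate 2 was the lowest in each group, and MALAT1 was higher in replicate 1 than in the mean of the others (0.14, SE 0.0408, adjusted p = 0.00952 by edgeR) and higher in replicate 3 than in replicate 2 (0.25, SE 0.0478, adjusted p = 0.00982 by edgeR). The first of these calls was lost without replicate 1 of Neg with DMSO or of Neg with 1-AKP. Between replicate 3, of passage 75, and replicate 2, of passage 74, the only other RNA called was SNHG1 (0.18, SE 0.0475, adjusted p = 0.0303 by edgeR), lost without any of 6 single libraries. These 2 of 152, both higher in replicate 3, compare with 2.83% of all genes in either direction and 0.994% higher. Without replicate 1 of siTUNAR with 1-AKP the count of called RNAs was 6.

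Other genes moved with replicate 1, where 20% of all genes were called higher and 21.5% lower. All 28 G2/M genes were higher, with a median log2 difference of 0.58 and a summed level of 5021 to 5426 CPM in replicate 1 against 3391 to 3786 CPM in replicates 2 and 3. Of 12 beta-cell markers, 10 were lower and 1 higher, with sums of 11707 to 12396 CPM against 14083 to 16051 CPM. Of the 5 other islet markers tested, 3 were higher and 1 lower, with sums of 1583 to 1762 CPM against 1256 to 1553 CPM. The 3 duct and acinar markers tested were lower, with sums of 72.6 to 78.5 CPM against 84.4 to 97.8 CPM, and the 2 fibroblast and stellate markers tested were higher, with sums of 5.73 to 6.93 CPM against 2.54 to 5.23 CPM. Of 3 endothelial and blood markers 1 was higher, with sums of 40.2 to 56.8 CPM against 25.2 to 46.5 CPM. Of 12 snoRNP and MALAT1 processing factors 11 were lower, and of 25 other snoRNA hosts 16 were lower and 2 higher. The part of these differences in the values of the noncoding RNAs was not tested.

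**Figure D5:**
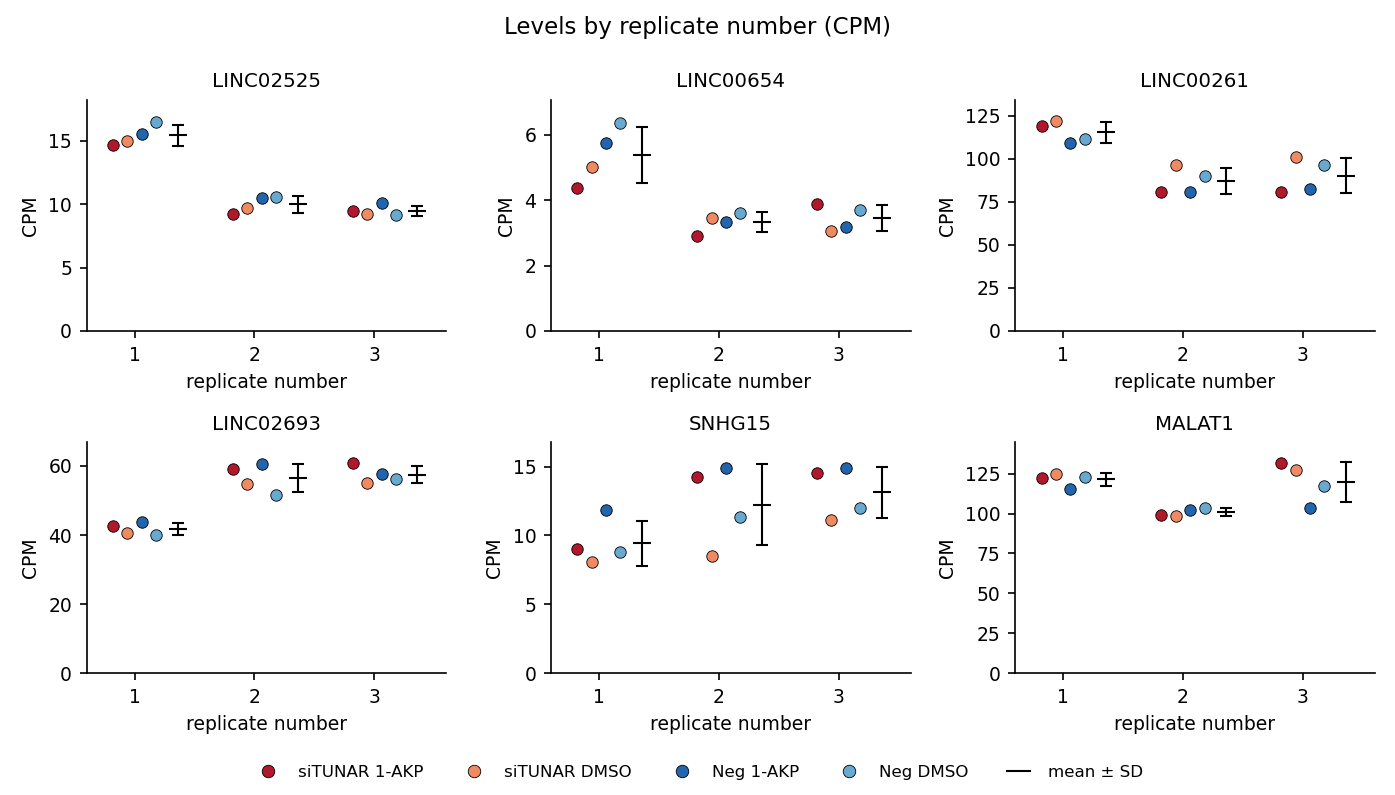
CPM of 6 RNAs by replicate number, 4 libraries per number, 1 of each group. LINC02525, LINC00654 and LINC00261 lie highest in replicate 1 (means 15.4, 5.38 and 115 CPM), LINC02693 lies lowest there (41.8 CPM), and MALAT1 lies lowest in replicate 2 (101 CPM).

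The counting bears on single values. The library protocol describes no step that marks strand, and the RefSeq intervals of 69 of the 152 RNAs overlap that of another gene on either strand. Where exons of both overlap, reads of the 2 genes may not be separable; overlap of exons was not examined. Of the 152 RNAs, 113 had a fractional expected count in at least 1 library, which arises when reads are shared out between features, and 39 had whole counts throughout. Of the genes that overlap SNHG3, SNHG7, SNHG29, SNHG6 and GAS5 in RefSeq, none was called with 1-AKP.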

How the data were processed

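Gene tables of 12 poly(A)-selected libraries were used. The expected counts are the authors' deposited values and need not be whole; deposited FPKM and transcript length (the file's other measure) come from the same tables. RSEM, Bowtie and BWA, and GRCh37/hg19, are named per the submitters' processing notes, whose roles are not given in the sources used here. Symbols were matched by Entrez ID to RefSeq (21386 of 21508 IDs; the 122 others were not used for membership). Expected counts were rounded and all genes fitted in edgeR 4.0.16 (R 4.3.3): filterByExpr (minimum count 10, minimum total 15; 15990 genes and 99.94% of counts kept, all 152 RNAs among them), TMM factors (0.9902 to 1.014), 4 group means, robust quasi-likelihood, Benjamini-Hochberg over all genes. The design has 8 residual degrees of freedom and a biological coefficient of variation of 8.74%. CPM are TMM-scaled and rest on 15653786 to 15986834 counts per library.

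Replicate effects were tested in a fit of group and replicate number (6 residual degrees of freedom, 2.86%). Deviations from group means correlated between same-numbered libraries at 0.376, 0.178 and 0.217 (siTUNAR and Neg, DMSO) and 0.416, 0.162 and 0.286 (1-AKP), all over 0.1. For these siRNA comparisons the blocked fit is therefore given beside the fit of group means, which stayed the main test. Between 1-AKP and DMSO, replicate 2 fell below 0.1. No 2 libraries of a group were duplicates. DESeq2 1.42.0 and limma 3.58.1 on log2(FPKM + 0.1) or log2(FPKM + 1) were alternatives, with other scalings, filters, passage and leaving out libraries. The scripts were tested on simulated data. Figures used Python 3.11.15 and matplotlib 3.10.9.

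The members, gene lists and start-letter window were chosen with earlier results of these data known. Named are MALAT1, NEAT1, every SNHG gene, GAS5, LINC genes called in any comparison (those called in the blocked 1-AKP fits alone by count), the 5 LINC genes highest in FPKM, and 3 genes on each side of the count threshold. The 5 LINC genes of the non-overlap sentence, LINC01278, and the 3 named for unadjusted p were chosen after their values were seen.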

Additional observations from a re-analysis of the deposited data

How the results depend on the processing

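No call changed direction in any alternative, but some hosts not called did: 16 to 18 of the 18 hosts had positive values in siTUNAR cells over the 29 alternatives and 15 to 17 in Neg cells. In the siRNA comparisons the replicate block gave 2 calls among the 152 RNAs with DMSO and 1 with 1-AKP, limma with the block gave 2 and 1, and leaving out replicates gave 0 to 1 and 0 to 2. In the 1-AKP comparisons, where the numbers did not meet the pairing rule, the block gave 32 calls in siTUNAR cells (16 up and 16 down, 27.1% of all genes) and 30 in Neg cells (14 up and 16 down, 26.8%), limma with the block gave 37 and 28, passage 74 alone gave 0 and 0, and leaving out replicates or single libraries gave 0 to 20 and 0 to 18. With the block, leaving out replicate 1, 2 or 3 gave 26, 18 and 20 calls in siTUNAR cells and 27, 21 and 16 in Neg cells. Over the 29 alternatives no snoRNA host fell and 0 to 12 rose in siTUNAR cells and 0 to 9 in Neg cells, while 0 to 6 LINC genes rose and 0 to 19 fell in siTUNAR cells and 0 to 5 rose and 0 to 16 fell in Neg cells. The share of all genes called varied too. With the block 14.2% of them rose and 12.9% fell in siTUNAR cells, and 14.0% rose and 12.8% fell in Neg cells. The hosts' median log2 fold change ranged from 0.22 to 0.30 in siTUNAR cells and 0.18 to 0.24 in Neg cells, and that of LINC genes from -0.09 to -0.03 and -0.10 to -0.03. The calls of LINC00673, LINC01370, SNHG3, SNHG7 and SNHG29 in both, of SNHG8 and LINC00865 in Neg cells and of LINC00997 in siTUNAR cells were lost only without replicate 2, without replicate 3 or with passage 74 alone; the cause was not tested. The interaction stayed at 0. Replicate 1 calls numbered 27 to 31 when single libraries were left out. Replicate 3 against 2 gave 1 call with DESeq2 and 1 with limma, 1 to 6 without single libraries, 0 without the group Neg with DMSO, 0 without siTUNAR with DMSO, and 1 without either 1-AKP group. Membership held 244 RNAs at a mean count of at least 25 and 96 at 100. RNAs near 50 counts carry the widest counting error, and 3 libraries per group limit what small changes can pass.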
